A study of Mus musculus with 14 samples.

Results

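Gene expression was compared between a pair of mouse embryonic stem cell (ESC) clones that both lack Zfp281, called KO2.6 and KO3.34 here, as they were turned into extraembryonic endoderm (XEN) cells. The members are the 6 libraries that the titles assign to these null clones, of 14 in the series: 1 library per clone as undifferentiated ESCs, at passage 1 (cXENp1) and at passage 3 (cXENp3) of chemical induction. Each stage was read as KO2.6 against KO3.34 on log2(FPKM + 1), where FPKM is a fragment count scaled to transcript length and library size. Both lines carry the 129S1/SVImJ background and the Zfp281KO genotype. The titles call the first clone 2.6 and its cell line field 2.26. ESCs grew without feeders in serum with LIF. The cXENp1 cells had been treated for 48 h with activin A (10 ng/mL) in XEN medium that also held 0.01 µM of all-trans retinoic acid, and the cXENp3 cells had then spent a passage on iMEF feeder cells and were sampled back on gelatin. The reference lines went through the same stages: WT3, which has Zfp281, and Rescue3.34, which the labels give as KO3.34 with Zfp281 put back. The levels of chromosome 14 and Y-linked genes in Rescue3.34 were unlike those of KO3.34, and the descent of the line was not tested. XENB1 and XEN5 are established XEN lines. Each null line is 1 clone with 1 library per stage, so that a difference between the clones at a stage has no replicate of its own.

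Extraembryonic endoderm is the lineage of the early embryo that forms the yolk sac. Its founder transcription factors, Gata6, Gata4, Sox17 and Sox7, switch on genes for endocytic receptors and for the laminins and collagens of a thick basement membrane, while pluripotency factors such as Nanog and Esrrb are shut off. Zfp281 is a zinc finger transcription factor of pluripotent cells, and retinoic acid with activin is an established route from ESCs to XEN cells.

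The targeted gene was read first. Zfp281 (chromosome 1, 138521478 to 138526968 in the deposited mm9 coordinates) was listed at 0 in KO2.6 as ESC, at 0 at cXENp1 and at 0.559 FPKM at cXENp3. KO3.34 had 3.92, 1.29 and 3.96 FPKM at the same stages. All 6 null libraries lay below the 6 libraries of WT3 and Rescue3.34, and KO2.6 was the lower clone at each stage. As ESCs both clones carried the pluripotency factor Pou5f1, at 1312 FPKM in KO2.6 and 977 FPKM in KO3.34. Between 15304 and 16622 genes were above 0 in the 6 null libraries. The read depth is unknown. A description prefix, JH or XH, splits the libraries: KO3.34, WT3 and Rescue3.34 as ESCs carry JH and the other 11, KO2.6 as ESC included, carry XH. At the ESC stage the prefix and the clone therefore cannot be told apart, while both clones carry XH at cXENp1 and cXENp3.

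As ESCs, before any inducer was added, KO2.6 already carried transcripts of the endoderm regulators that KO3.34 barely showed. Gata6 stood at 10.5 FPKM in KO2.6 against 0.562 in KO3.34, 0.0558 in WT3 and 0.0642 in Rescue3.34. Sox17, on chromosome 1 like Zfp281, stood at 4.59 against 0.653, 0.0167 and 0.0712. Sox7 stood at 5.74 against 0.201, 0.0483 and 0.0708. Gata4 was at 12 against 2.67, 0.396 and 0.364. In each of these 4 genes KO2.6 was the highest line and KO3.34 the next. Of the 7 endoderm transcription factors listed, 6 were at least 1 log2 unit higher in KO2.6 and 1 (Hnf4a) lay within 1, with a median difference of 1.76. Over all 13191 genes kept, 620 (4.7%) were at least 1 higher and 1065 (8.07%) at least 1 lower, with a median of -0.09. KO2.6 exceeded all 3 other lines in 7 of the 7 factors, as it did in 3861 genes (29.3%) overall. Sox7 (2.49 ± 0.36 log2, SE; limma adjusted p = 0.0435) and Sox17 (1.76 ± 0.28; limma adjusted p = 0.0497) passed the test. Gata6 (2.88 ± 0.82; limma adjusted p = 0.123) and Gata4 (1.82 ± 0.55; limma adjusted p = 0.135) did not. In bulk RNA, more cells of a type and more RNA per cell cannot be told apart.

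Other endoderm groups were partly ahead in KO2.6 at the same stage. Amn, which anchors the cubilin receptor at the cell surface, stood at 14.3 FPKM against 1.86 in KO3.34, 1.05 in WT3 and 1.63 in Rescue3.34 (2.42 ± 0.34 log2; limma adjusted p = 0.0415). Of 9 endoderm surface and signalling genes kept (10 were listed, and Cer1 fell under the filter), 5 were at least 1 higher and none lower, and Amn alone was called. Krt8, a simple-epithelium keratin, had 67.7 against 17.6 FPKM, and Lrpap1, a chaperone of endocytic receptors, 43.7 against 15.8. These were the called genes among 13 parietal endoderm genes, 6 of which were at least 1 higher. Basement membrane genes had a median difference of 1.39, with 6 of 11 at least 1 higher and no call: Sparc, a collagen-binding matrix protein, was at 328 against 49.4 FPKM, and Col4a1, a chain of collagen IV, at 67.3 against 7.98. Visceral endoderm genes had a median of 0.04, with 1 of 6 kept genes at least 1 higher and 1 lower. The lower gene was Apoa2, listed at 0 FPKM in KO2.6 against 15.2 in KO3.34, 1.18 in WT3 and 0.818 in Rescue3.34, and it was not called. The summed level of the 6 was 5.21 FPKM in KO2.6 against 17.7 in KO3.34. The secreted proteins Afp and Alb, which define visceral endoderm and liver, were at 0 in both clones as ESCs.

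**Figure D1:**
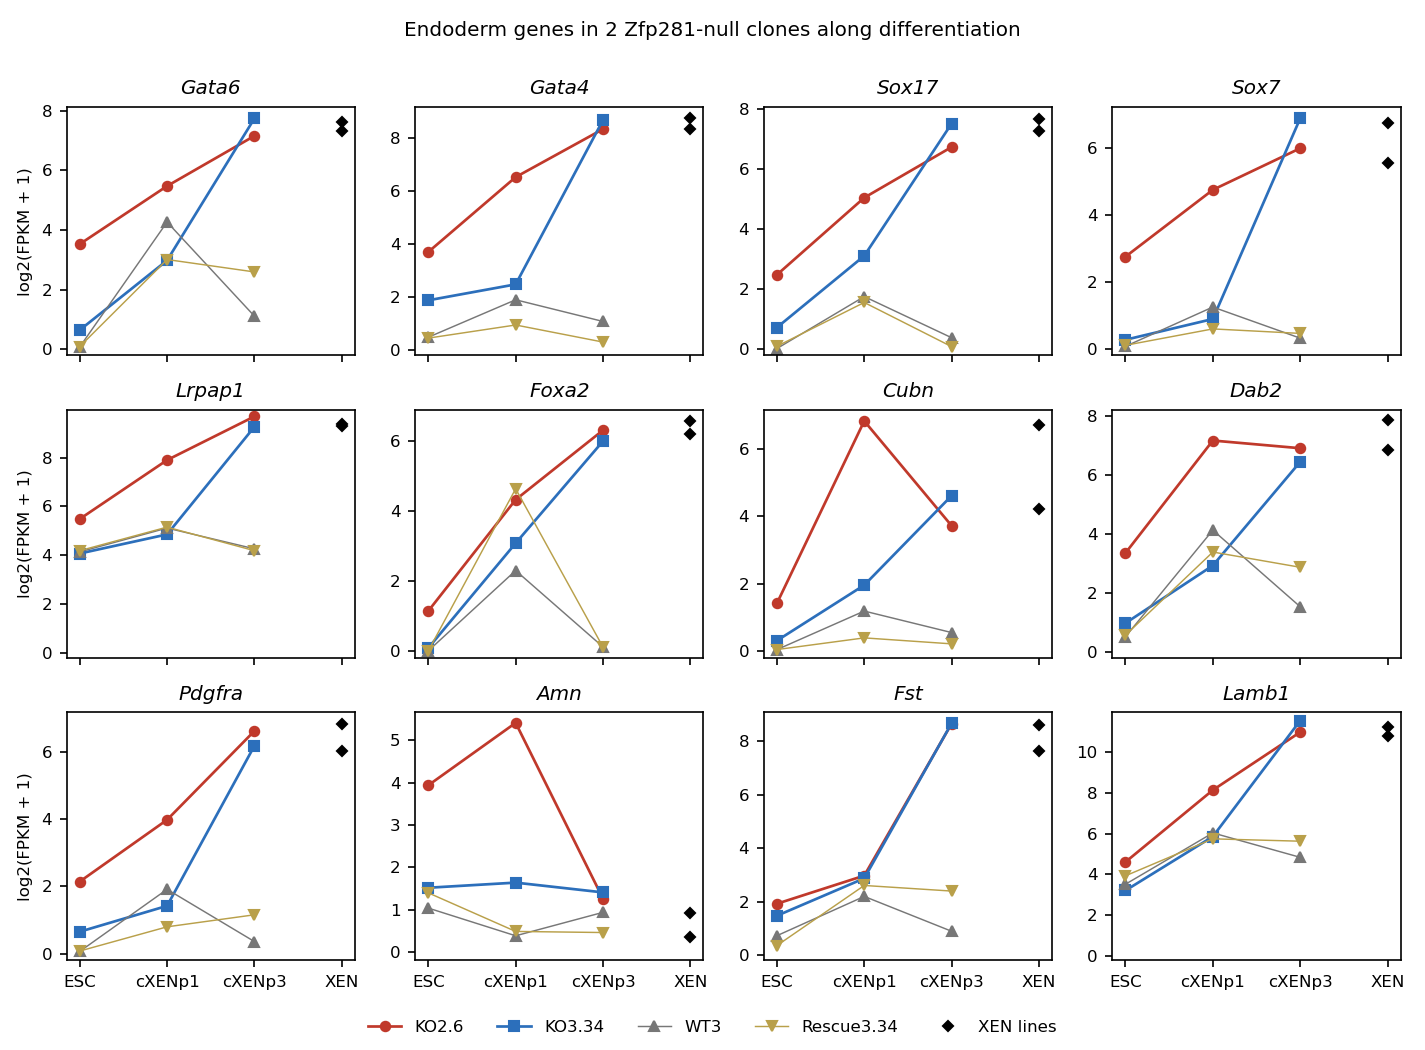
Level of 12 endoderm genes on log2(FPKM + 1) (y axis) at each stage (x axis), with 1 point per library, lines joining the stages of a cell line, and the established XEN lines as black diamonds. KO2.6 lies above KO3.34 at ESC and cXENp1 in all 12 panels, and both clones are far above WT3 and Rescue3.34 at cXENp3 in every panel except Amn.

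Differences at the ESC stage also lay beyond endoderm. Of 13191 genes, 192 (1.46%) passed the limma threshold, 99 higher and 93 lower in KO2.6, with 19 of them listed at 0 in a null library. The largest differences above 5 FPKM without a zero included 2210409E12Rik (299 FPKM in KO2.6, 2.88 in KO3.34 and 0 in WT3 and Rescue3.34), Lgals3, the galectin 3 gene (126 against 1.4), the imprinted gene Peg10 (129 against 2.32) and Dnmt3l, a partner of the DNA methyltransferases (105 against 2.9). In the direction of KO3.34 stood Tfap2c, a transcription factor of trophoblast and germ cells (1.86 against 54.5), Fxyd6 (2.13 against 88.5) and Rgcc (0.964 against 62.7). Each of these 7 genes passed the test, with limma adjusted p between 0.0196 and 0.0472. Ndufa4l2 had the largest such difference in the direction of KO3.34 (0.328 against 46.2 FPKM) and did not pass. Grb10 and Grin1, also among the 8 largest in that direction, did not pass either. Tfap2c in KO3.34 stood near WT3 (67.7) and below Rescue3.34 (107), whereas WT3 and Rescue3.34 held Dnmt3l at 34.6 and 32.7 FPKM, between the clones.

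Dusp6, a phosphatase induced by ERK signalling, stood at 138 FPKM in KO2.6 against 12.4 in KO3.34, 33.8 in WT3 and 16.1 in Rescue3.34 (3.38 ± 0.53 log2; limma adjusted p = 0.0482). It was the called gene among 8 MEK-ERK feedback genes, of which 3 were at least 1 higher, among them Etv4, an ETS factor (93.2 against 22.5), which did not pass the test. Id1, an inhibitor of basic helix-loop-helix factors, was at 353 against 13.5 FPKM (limma adjusted p = 0.0435). Pluripotency genes had a median of -0.55: Nanog was at 260 against 321 FPKM and Esrrb at 151 against 221, and none of the 18 passed the test. Among 9 trophoblast genes kept, 5 were at least 1 lower in KO2.6 and Tfap2c was called. Of 12 retinoic acid response genes, 2 were at least 1 lower and 10 within 1, and Crabp1 was called (12.6 against 60.1 FPKM). The 192 calls rested on a spread taken from WT3 against Rescue3.34. Leaving that pair out gave 7 calls without its ESC stage, 5 without cXENp1 and 585 without cXENp3, and with quantile normalization 60 were called. Sox7, Sox17, Amn, Krt8, Dnmt3l and Dusp6 lost their calls without the ESC or the cXENp1 pair and under quantile normalization, with the same direction.

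After 48 h of inducers KO2.6 still stood ahead in the endoderm regulators, each at a larger value than as ESC. Gata4 stood at 91.2 FPKM in KO2.6 against 4.57 in KO3.34, 2.72 in WT3 and 0.923 in Rescue3.34. Sox7 stood at 26.0 against 0.849, 1.37 and 0.505. For these genes KO3.34 lay near the lines that have Zfp281, and KO2.6 alone was high. Gata6 was at 43.3 FPKM in KO2.6, 6.88 in KO3.34, 18.2 in WT3 and 7.04 in Rescue3.34, so that WT3 lay between the clones. Sox17 was at 32.2, 7.67, 2.38 and 1.95, with KO3.34 the next highest. Foxa2, a forkhead factor of all endoderm, was at 18.9 in KO2.6 and 7.42 in KO3.34, and Rescue3.34 was higher than both at 23.7. All 7 factors were at least 1 log2 unit higher in KO2.6 than in KO3.34, with a median of 2.49, and 6 of 7 exceeded all 3 other lines. Over all genes 490 (3.71%) were at least 1 higher, 319 (2.42%) at least 1 lower, and 4534 (34.4%) exceeded the other 3 lines. Sox7 (3.87 ± 0.36; limma adjusted p = 0.0237) passed the test. The limma adjusted p was 0.0717 for Gata4, 0.084 for Sox17 and 0.339 for Gata6.

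Of the genes for endocytic uptake, by which visceral endoderm takes in maternal proteins, 4 are given here from the surface and parietal lists, chosen after their values were seen. Cubn encodes the receptor cubilin and stood at 113 FPKM in KO2.6 against 2.89 in KO3.34, 1.28 in WT3 and 0.313 in Rescue3.34 (4.87 ± 0.42 log2; limma adjusted p = 0.0198). Its partner Amn stood at 41.5 against 2.11, 0.303 and 0.399 (3.77 ± 0.34; limma adjusted p = 0.0223). Lrpap1 stood at 237 against 27.9, 33.6 and 34.5 (3.04 ± 0.18; limma adjusted p = 0.0198). Dab2, the adaptor that couples these receptors to clathrin, stood at 144 against 6.65, 16.6 and 9.51 (4.24 ± 0.66; limma adjusted p = 0.095). KO2.6 was the highest line for all 4. KO3.34 lay above WT3 and Rescue3.34 for Cubn and Amn and below both for Lrpap1 and Dab2. Lrp2, the megalin receptor, differed less, at 35 against 18.4 FPKM. Ihh, a hedgehog ligand of visceral endoderm, was at 8.40 against 0.795 (limma adjusted p = 0.0326), and Cited1, a transcriptional coactivator of the same tissue, at 49.0 against 4.25 (limma adjusted p = 0.0198). Of the 9 surface and signalling genes kept, 5 were at least 1 higher and 3 were called (Cubn, Amn and Ihh).

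The promoter windows of these 4 endocytic genes are shown because the genes stood high together in KO2.6 at cXENp1. Each window runs from 250 bases before to 50 after a gene start, as RefSeq gives it in GRCm38.p6, a build other than that of the expression table. Capitals mark GATAA, the core bound by GATA factors, searched on both strands (TTATC on the other), with no overlap with another motif.
Cubn, chr2:13491827-13492126, minus strand: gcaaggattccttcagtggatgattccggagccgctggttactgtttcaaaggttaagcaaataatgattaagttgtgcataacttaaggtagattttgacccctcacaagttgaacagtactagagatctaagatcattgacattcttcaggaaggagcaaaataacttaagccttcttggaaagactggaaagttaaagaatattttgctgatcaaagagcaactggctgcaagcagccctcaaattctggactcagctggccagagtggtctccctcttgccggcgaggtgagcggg
Amn, chr12:111270846-111271145, plus strand: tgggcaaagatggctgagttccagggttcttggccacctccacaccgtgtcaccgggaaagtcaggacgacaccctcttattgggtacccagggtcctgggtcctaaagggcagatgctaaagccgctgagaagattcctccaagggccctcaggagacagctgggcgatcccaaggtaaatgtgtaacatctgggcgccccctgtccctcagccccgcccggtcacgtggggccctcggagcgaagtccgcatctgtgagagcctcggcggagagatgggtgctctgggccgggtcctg
Lrpap1, chr5:35105650-35105949, minus strand: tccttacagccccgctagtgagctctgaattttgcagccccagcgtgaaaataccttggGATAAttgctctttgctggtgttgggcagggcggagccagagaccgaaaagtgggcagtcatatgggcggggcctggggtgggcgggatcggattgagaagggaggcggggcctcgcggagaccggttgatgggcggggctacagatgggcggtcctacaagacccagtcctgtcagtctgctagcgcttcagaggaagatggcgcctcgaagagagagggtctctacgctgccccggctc
Dab2, chr15:6299539-6299838, plus strand: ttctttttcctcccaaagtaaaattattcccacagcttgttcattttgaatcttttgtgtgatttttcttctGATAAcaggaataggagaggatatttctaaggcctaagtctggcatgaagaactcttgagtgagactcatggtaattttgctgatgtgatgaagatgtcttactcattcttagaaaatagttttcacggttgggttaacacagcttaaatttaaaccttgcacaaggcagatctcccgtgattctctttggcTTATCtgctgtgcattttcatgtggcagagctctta
Dab2 also has another start, whose window holds 0 matches. The window printed for Dab2 holds 2 matches, that of Lrpap1 holds 1, and those of Cubn and Amn hold 0. GATAA lies in 25.4% of all 32851 windows of 300 bases and in 6 of 19 windows taken for endoderm genes. Those 19 belong to listed regulators and surface genes, with Lrpap1 and Cited1 added by choice from other lists. Both added genes have a window with a match, so the 6 of 19 is not free of selection. A match is a description of the letters and not a binding site. Sox17, Sox7 and Gata4 have no entry.

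Matrix genes stood in the same order at this stage. All 11 basement membrane genes were at least 1 higher in KO2.6, with a median of 2.27, and KO2.6 exceeded the other 3 lines in all 11. Col4a1 stood at 772 FPKM against 51.3 in KO3.34, 43.6 in WT3 and 46.0 in Rescue3.34, and Lama1, the laminin alpha 1 chain, at 234 against 21.2, 30.8 and 12.2. Lamb1, the laminin beta 1 chain, was at 278 against 56.8. None of the 11 passed the test; the limma adjusted p was 0.296, 0.109 and 0.132 for those 3 genes. Of 13 parietal endoderm genes 5 were at least 1 higher and 1 lower, with Lrpap1 called. Of 6 visceral endoderm genes kept 4 were at least 1 higher and 1 lower: Cited1 was called, Rbp4, a retinol carrier, stood at 29.4 against 4.79 FPKM, and Apoa2 stood the other way, at 0.32 against 6.04.

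**Figure D2:**
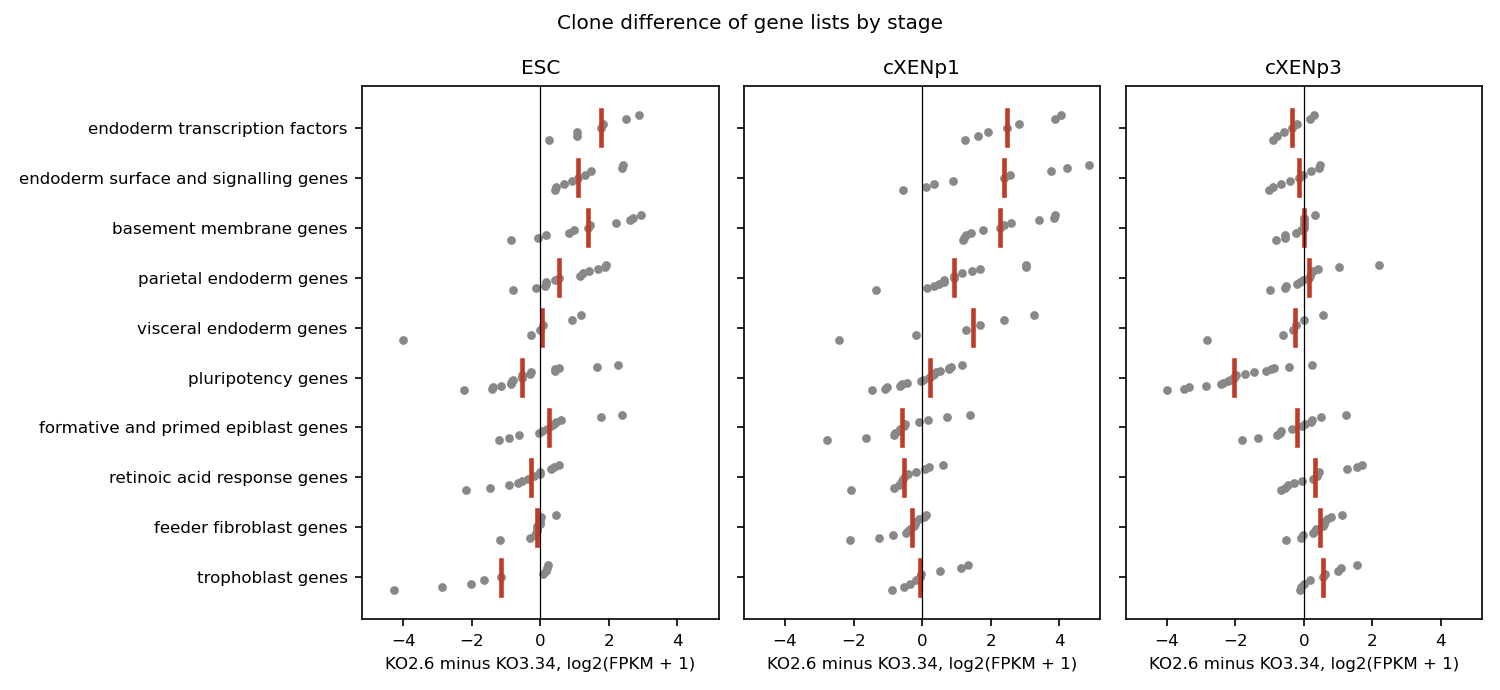
Difference between the clones (KO2.6 minus KO3.34 on log2(FPKM + 1), x axis) for the genes of 10 lists (rows) at each stage, with 1 grey point per gene and the list median as a red bar. The endoderm lists lie to the right at cXENp1, with medians of 2.49 for the transcription factors and 2.27 for basement membrane genes, and the pluripotency list lies to the left at cXENp3, with a median of -2.04.

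Among retinoic acid response genes, Cyp26a1, the retinoic acid degrading enzyme, stood at 597 FPKM in KO2.6 and 524 in KO3.34, with 649 in WT3 and 445 in Rescue3.34. Of 12 listed genes 11 lay within 1 log2 unit, as did 12382 of all 13191 genes kept, and 1 was at least 1 lower in KO2.6. The list median was -0.52 against -0.01 over all genes, and none was called. Of the 12, 6 lay below all 3 other lines and 0 above them, against 4193 and 4534 of all 13191 genes kept. Of 18 pluripotency genes 3 were at least 1 lower, 1 was higher and none was called at cXENp1. Their summed level was 876 FPKM in KO2.6, 1180 in KO3.34, 399 in WT3 and 783 in Rescue3.34, with Nanog at 2.24 against 5.87 FPKM and Esrrb at 1.75 against 1.19 in the clones.

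Across all genes, 40 (0.303%) passed the threshold at cXENp1, 35 higher and 5 lower in KO2.6, with 7 listed at 0 in a null library. Other genes called, chosen here after their values were seen, were Lgmn, a lysosomal protease (335 against 28.9 FPKM), Tfpi, an inhibitor of coagulation (78.4 against 8.33), Hs3st1, a heparan sulfate sulfotransferase (16.4 against 1.48), Klb, a coreceptor for endocrine FGFs (16.5 against 0.99), and Tdh, threonine dehydrogenase (62.3 against 3.69). Called lower in KO2.6 were AA465934 (0.739 against 24.1), H2-Bl (0.345 against 9.27), Asb4 (0.479 against 7.14), and Ccl3 and Pnp2, which were listed at 0 in KO2.6. The number of calls was 0 without the ESC pair of WT3 and Rescue3.34, 1 without their cXENp1 pair and 61 without their cXENp3 pair, and it was 8 with a pseudocount of 0.1. Cubn, Amn, Lrpap1, Sox7, Ihh and Cited1 lost their calls without the ESC or the cXENp1 pair, and all but Lrpap1 with the smaller pseudocount, in each case with the same direction.

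By cXENp3 KO2.6 no longer stood ahead in the endoderm regulators. Gata6 stood at 141 FPKM in KO2.6 against 212 in KO3.34, beside 158 in XENB1 and 196 in XEN5. Sox17 stood at 106 against 183, beside 206 and 153. Gata4 stood at 323 against 410, beside 326 and 430. WT3 and Rescue3.34 stayed at or below 5.03 FPKM for these 3 genes, so both null clones stood apart from them and near the XEN lines. None of the 7 factors differed by 1 log2 unit (median -0.34) and none was called, against 591 genes (4.48%) at least 1 higher and 566 (4.29%) at least 1 lower over all genes. The surface and signalling genes had a median of -0.15, with Dkk1, a secreted Wnt inhibitor, the gene that was at least 1 lower (1.51 against 4.04 FPKM). Cubn stood at 12.2 against 23.5 FPKM (limma adjusted p = 0.389), and Amn was low in both clones at 1.39 and 1.65. Of the basement membrane genes 6 had values, all within 1 log2 unit, such as Lamb1 at 1987 against 2933 FPKM. The other 5 (Lama1, Lamc1, Col4a1, Col4a2 and Sparc) were listed at 0 in both clones and both XEN lines after 234 to 852 FPKM at cXENp1 in KO2.6. These zeros can be failed estimates, and no difference is read from them. Of 13 parietal genes 2 were at least 1 higher (Krt18 and Krt19) and 11 within 1; of 6 visceral genes Apoa2 was at least 1 lower and 5 were within 1.

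Pluripotency transcripts stood lower in KO2.6 at this stage. Nanog stood at 1.64 FPKM in KO2.6 against 28.5 in KO3.34, 280 in WT3 and 221 in Rescue3.34 (-3.48 ± 0.33 log2; limma adjusted p = 0.0326). Esrrb, an orphan nuclear receptor of naive ESCs, stood at 0.509 against 22.8, 204 and 117 (-3.98 ± 0.38; limma adjusted p = 0.0348). Sox2 stood at 7.54 against 45, 399 and 195. Pou5f1 stood at 47.4 against 189, with 10.4 in XENB1 and 0 in XEN5. For these 4 genes KO2.6 was lowest, KO3.34 came next and the lines with Zfp281 were highest. Of the 18 pluripotency genes 14 were at least 1 log2 unit lower in KO2.6 (median -2.04), 2 were called lower, and 16 lay below all 3 other lines, as did 4456 genes (33.8%) overall. Klf4, a Krüppel-like factor, was the exception in sign, at 146 against 123 FPKM. Tdh, which mouse ESCs use to catabolise threonine, stood at 4.53 against 72.2 FPKM (limma adjusted p = 0.0235), after 62.3 against 3.69 at cXENp1.

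**Figure D3:**
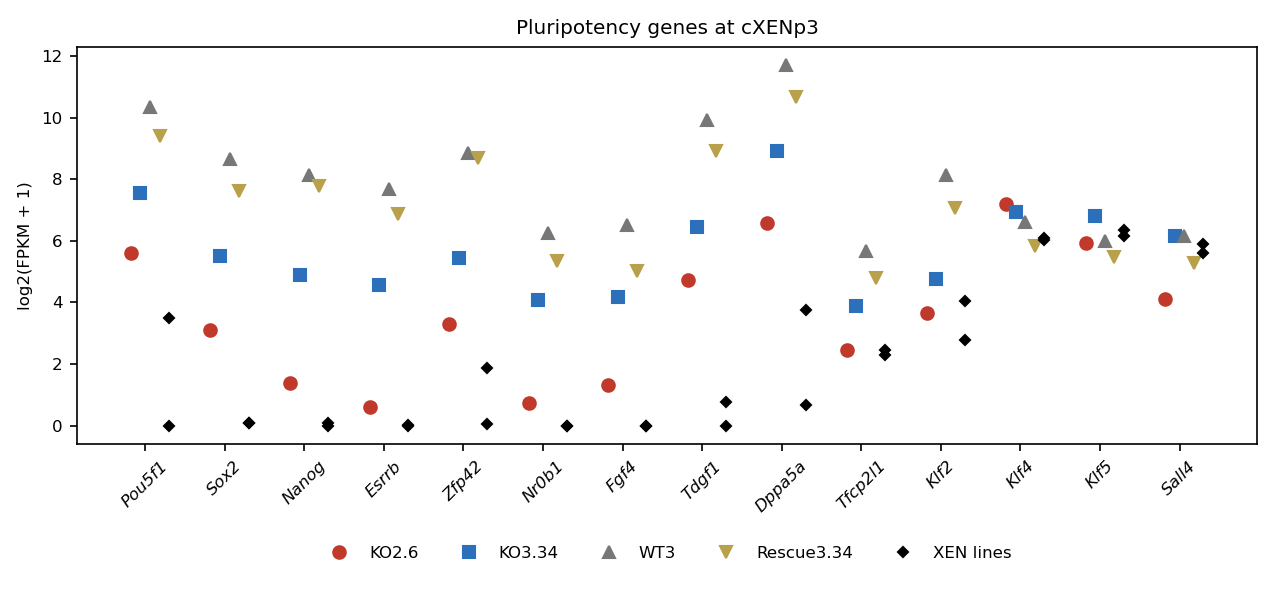
Level of 14 pluripotency genes (x axis) at cXENp3 on log2(FPKM + 1) (y axis), with 1 point per library for the null clones, WT3, Rescue3.34 and the XEN lines. KO2.6 lies below KO3.34 in 13 of the 14 genes, and KO3.34 lies between KO2.6 and WT3 for genes such as Nanog (1.64, 28.5 and 280 FPKM).

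Feeder cells were in the culture before this stage. Among 12 feeder fibroblast genes, 11 lay within 1 log2 unit and 1 (Thy1) was at least 1 higher in KO2.6, and their summed level was 742 FPKM in KO2.6, 656 in KO3.34, 76.6 in WT3, 2151 in Rescue3.34, 1435 in XENB1 and 790 in XEN5. The collagen genes Col1a1 (168 against 133 FPKM) and Col1a2 (108 against 83.9) were not near 0 in either clone. The part of feeder RNA in the differences at cXENp3 was not tested. Of 13191 genes, 22 (0.167%) passed the threshold at cXENp3, 15 higher and 7 lower in KO2.6, with 11 listed at 0 in a null library. The balance of directions depended on the setting: quantile normalization called 26 higher and 30 lower, a pseudocount of 0.1 called 2 and 7, and a mean of at least 5 FPKM called 0 and 5. Without a zero, those called higher included Aspa, aspartoacylase (45.3 against 4.73 FPKM), Agtr1a, an angiotensin receptor (27.7 against 2.43), Myl7, an atrial myosin light chain (10.2 against 0.502), and Msln, mesothelin (32.3 against 5.08). Genes known from stomach mucosa were also called, although each was listed at 0 in a null ESC library: Gkn2 (222 against 10.7 FPKM), Gkn1 (46.3 against 2.86) and Tff2 (33.3 against 3.87). They were chosen here after their values were seen. The number of calls was 2, both lower, without the ESC or the cXENp1 pair of WT3 and Rescue3.34 and 50 without their cXENp3 pair, and Nanog and Esrrb lost theirs in the first 2 cases.

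A wider set of genes was chosen among the genes kept, by their levels in the XEN lines and in WT3 and Rescue3.34 as ESCs. The null libraries had no part in that comparison, but they counted in the filter for genes kept, whereas the XEN lines did not. The 326 genes at least 3 log2 units higher in both XEN lines than in WT3 and Rescue3.34 as ESCs mark the XEN state, and 217 genes the other way mark the ESC state. On the median gene KO2.6 had covered 6.1% of the way to XEN as ESC, 53.0% at cXENp1 and 97.9% at cXENp3 in the first set. KO3.34 had covered 0.7%, 27.3% and 92.6%, and at cXENp1 it stood beside WT3 (25.6%) and Rescue3.34 (21.2%). KO2.6 was at least 1 higher than KO3.34 in 22.7%, 39.0% and 15.0% of the XEN-high genes at the 3 stages. KO2.6 was at least 1 lower in 37.3%, 8.29% and 35% of the ESC-high genes. In that set KO2.6 had lost 21.1%, 60.8% and 85.4% of the distance and KO3.34 6.2%, 52.4% and 64.9%. By both measures the XEN-high gap was widest at cXENp1, while the ESC-high gap was widest at ESC by the share of genes and at cXENp3 by the distance. The sets were chosen between XH and JH libraries, as the clones are split at the ESC stage. A XEN gene that stayed low throughout the course could not pass the filter. The percentages for the XEN-high set, those of the null clones above all, can therefore be partly built into the choice. Of the 490 genes at least 1 higher in KO2.6 at cXENp1, 137 had been so as ESCs, as had 620 of all 13191 genes kept. At cXENp3, 88 of the 490 were still at least 1 higher, 383 lay within 1 log2 unit and 19 were at least 1 lower. Among all 13191 genes the same counts at cXENp3 were 591, 12034 and 566. The 490 were picked for a large difference at cXENp1, so some narrowing at other stages was built into the choice.

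The change of the clone difference was tested directly. From ESC to cXENp3, 4 genes (0.0303%) passed the threshold, and from cXENp1 to cXENp3, 5 genes (0.0379%). Tcf15, a basic helix-loop-helix factor of cells leaving naive pluripotency, stood at 279 against 47.3 FPKM as ESC and 8.09 against 45.8 at cXENp3, a change of -4.90 ± 0.36 (limma adjusted p = 0.0338). Tdh changed by -7.48 ± 0.44 from cXENp1 to cXENp3 (limma adjusted p = 0.0148). The other calls (Snora81, 2410141K09Rik, Gkn1 and Gkn2) were listed at 0 in at least 1 null library. At an unadjusted limma p under 0.05 there were 2484 and 1373 genes, and no endoderm factor listed passed the adjusted threshold for either change. Sox7 came nearest, with a limma adjusted p of 0.0861 from ESC, as for Sox17, and 0.0777 from cXENp1.

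Some differences held at all 3 stages. At least 1 log2 unit apart in the same direction throughout were 26 genes higher and 33 lower in KO2.6, against 3 genes in all for WT3 and Rescue3.34. Pairs that differ in Zfp281 had more: 70 for KO3.34 against WT3, 88 for KO3.34 against Rescue3.34 and 272 for KO2.6 against WT3. The pairs with KO2.6 are split by the JH and XH prefix at the ESC stage, whereas the other pairs share it throughout. These counts are therefore not like for like. In the fit over the 3 stages, 1 of 12575 genes (0.00795%) passed, Mir703, which was listed at 0 in all KO2.6 libraries and at 2389, 344 and 377 FPKM in KO3.34. Rescue3.34 was listed at 244 FPKM at cXENp1 and XEN5 at 1167, and the other libraries at 0. The row under this symbol runs over chromosome 5 from 98758323 to 99231038 in mm9, so its value cannot be assigned to the miRNA. At an unadjusted limma p under 0.05 there were 1268 genes. AA465934 was called at every stage in the fits within stages: it stood at 2.12, 0.739 and 0.212 FPKM in KO2.6 against 37.5, 24.1 and 51.8 in KO3.34, where WT3 and Rescue3.34 lay between 28.3 and 48.0. Pnp2 and Rnaset2b were also called at all 3 stages, but both have near-identical copies, which makes their values uncertain. The tests at the 3 stages share their estimate of spread, and AA465934 at cXENp3 reached a limma adjusted p of 0.0522 without the cXENp1 pair of WT3 and Rescue3.34.

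Imprinted genes, which are read from 1 parental allele, included genes that stood apart at every stage. Grb10, a growth-limiting adaptor expressed from the maternal allele in most tissues, stood at 3.05, 6.12 and 8.32 FPKM in KO2.6 along the 3 stages and at 70.0, 206 and 37.2 in KO3.34. WT3 had 29.2, 161 and 28.1 and Rescue3.34 11.8, 171 and 84.1, so KO2.6 was the lowest line at each stage (-3.68 over the 3 stages; limma adjusted p = 0.143). The maternal noncoding RNA Rian stood at 1.52, 1.40 and 6.28 against 9.23, 25.2 and 15.2, and Igf2r, the receptor that clears IGF2, at 5.48, 8 and 10.1 against 12.1, 21.5 and 43.2. Of 9 maternally expressed genes kept, 5 were at least 1 lower in KO2.6 as ESCs, 6 at cXENp1 and 6 at cXENp3, with medians of -1.01, -1.32 and -1.10, and 1 was at least 1 higher (Phlda2, as ESC). For WT3 minus Rescue3.34 the medians of these 9 genes were 0.0, 0.31 and -1.22. At cXENp3 the lines with Zfp281 therefore differed by a similar amount. Of 15 paternally expressed genes, 7, 1 and 6 were at least 1 higher and 2, 0 and 0 at least 1 lower. Over all genes kept, 4.7%, 3.71% and 4.48% were at least 1 higher at the 3 stages. The shares at least 1 lower were 8.07%, 2.42% and 4.29%. Sgce, the paternal neighbour of Peg10, stood at 8.34, 26.9 and 90.2 against 2.82, 14 and 14, and Mcts2 at 57.6, 21.9 and 29.2 against 11.1, 10.0 and 10.2. Peg10 and Mcts2 were called at the ESC stage (limma adjusted p of 0.0246 and 0.0388), and none of the 25 listed genes kept was called later. Outside the list, and chosen after their values were seen, the maternally expressed Asb4 was called lower at cXENp1, and Slc38a4, a paternally expressed amino acid transporter, stood at 14, 42.5 and 1.78 FPKM in KO2.6 against 118, 135 and 9.64 in KO3.34. Slc38a4 was called lower at the ESC stage (limma adjusted p = 0.0234), opposite in direction to Peg10 and Mcts2. The parental allele was assigned after the values were seen, and the reads do not separate alleles.

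**Figure D4:**
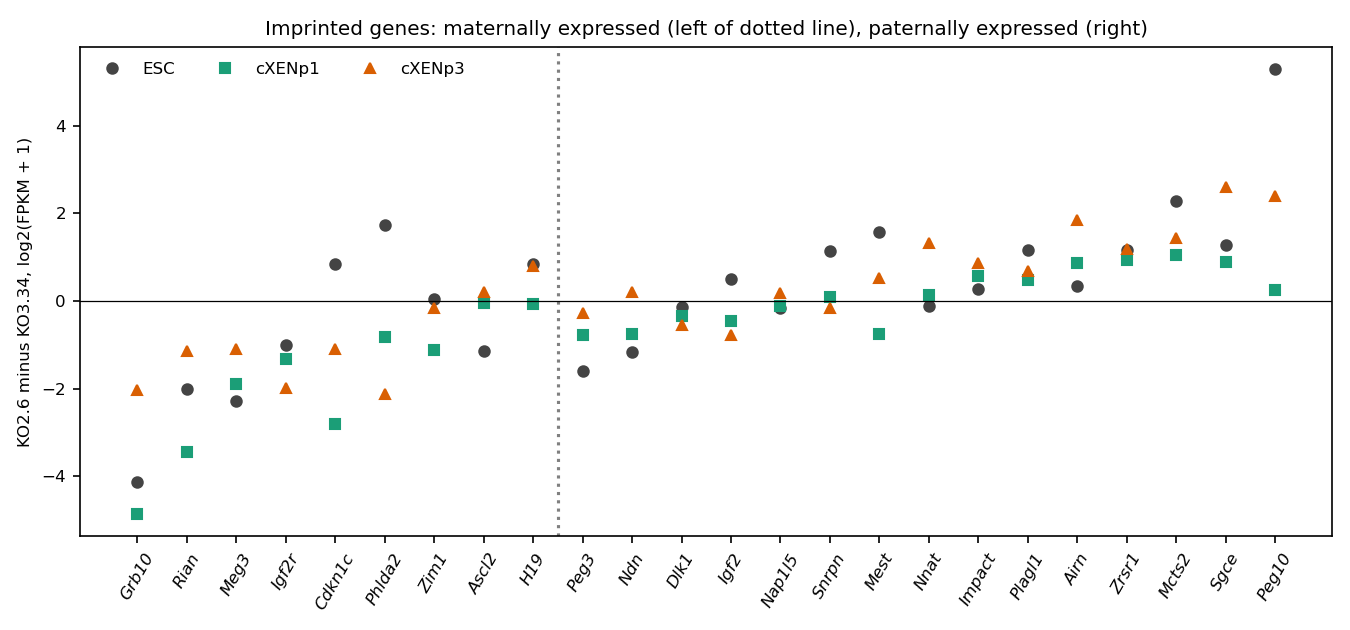
Difference between the clones (KO2.6 minus KO3.34 on log2(FPKM + 1), y axis) for 24 imprinted genes (x axis), with 1 point per stage and the dotted line separating maternally from paternally expressed genes. Grb10 and Rian lie below 0 at all stages and Zrsr1, Mcts2, Sgce and Peg10 above 0.

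Genes of chromosome 1 were shifted as a block. Over 505 genes with a mean of at least 5 FPKM in the null libraries, the median difference of KO2.6 from KO3.34 was -0.60 as ESCs, -0.49 at cXENp1 and -0.51 at cXENp3, and 85.3%, 86.5% and 85.1% of them were lower in KO2.6. The medians of the other chromosomes lay between -0.16 and 0.13. Against WT3 the chromosome 1 median was -0.47, -0.47 and -0.51 in KO2.6 and 0.13, 0.03 and -0.03 in KO3.34, so KO2.6 departed from WT3 and KO3.34 stood close to it. It ran along the whole chromosome: in 5 consecutive groups of 101 genes the median over the stages was -0.61, -0.50, -0.52, -0.50 and -0.56. DNA copy number was not measured. Sox17 and Ihh lie on this chromosome and were higher in KO2.6 at ESC and cXENp1. Of the 13191 genes tested, 730 were chromosome 1 genes, as were 15 of the 192 ESC calls and 2 of the 40 cXENp1 calls. KO2.6 was lower in 14 of those 15 ESC calls, among 93 lower calls at that stage. It was lower in 0 of the 2 at cXENp1. Y-linked transcripts differed too: Eif2s3y was at 0 in KO2.6 as ESC and at cXENp1 and at 1.01 FPKM at cXENp3, against 2.19, 5.79 and 2.45 in KO3.34, 91.2, 56.1 and 49.8 in WT3 and 43.0, 34.4 and 30.5 in Rescue3.34. Ddx3y and Uty were likewise at 0 in KO2.6 at the first 2 stages.

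**Figure D5:**
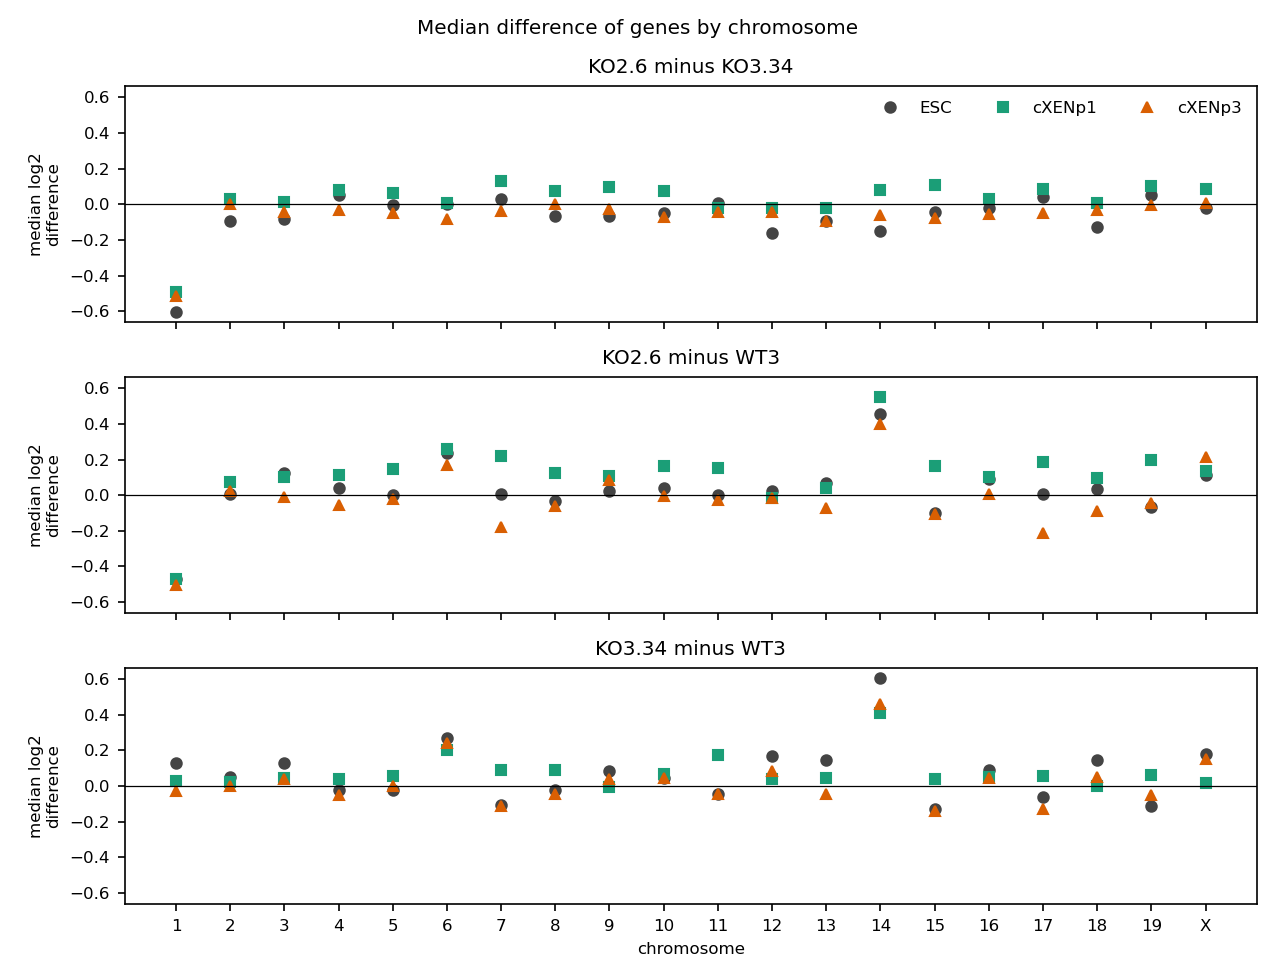
Median log2 difference of genes with a mean of at least 5 FPKM on each chromosome (x axis), for KO2.6 against KO3.34 and for each clone against WT3 (panels), with 1 point per stage. Chromosome 1 lies between -0.60 and -0.47 in both panels with KO2.6 and between -0.03 and 0.13 for KO3.34 against WT3.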

How the data were processed

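PolyA RNA-seq libraries were measured in 6 samples of the null clones and 8 of the other lines. The authors deposited 1 table of FPKM for 23174 gene rows, made with STAR 2.5.3 and Cufflinks 2.1.1 on mm9 per the submitters' processing notes. No read counts are in the table, so the depth per sample is unknown, no interval was computed and precision is limited by 1 library per clone and stage. No pair of libraries held identical values.

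The scale is log2(FPKM + 1), on which changes of low genes come out too small. Within a stage, limma 3.58.1 in R 4.3.3 (eBayes with trend) was fitted to the 12 libraries of the course. Each null library had its own coefficient and WT3 and Rescue3.34 shared 1 per stage, which left 3 residual degrees of freedom. The lone null libraries are assumed to vary as WT3 and Rescue3.34 do, so an adjusted p measures a difference against the spread between those lines. Over the 3 stages, the 6 null libraries were fitted with stage as a block (2 residual degrees of freedom), since each clone gave 1 library per stage and the stage pairs them. Genes were kept where at least 2 fitted libraries reached 1 FPKM (13191 and 12575 genes), and were called where the Benjamini-Hochberg adjusted p was under 0.05 in each of 6 genome-wide comparisons. Differences of 1 log2 unit are counted without a test.

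Genes named are Zfp281, list members, and up to 8 per direction and stage with the largest difference among genes of at least 5 FPKM in 1 clone. Genes with a value of 0 or a repeated symbol were left out there: 36, 49 and 50 genes by stage. Lists covered endoderm (regulators, surface, basement membrane, visceral, parietal), pluripotency, epiblast, mesendoderm, retinoic acid, feeder, trophoblast, neural, 2-cell-like, Y-linked, X inactivation, imprinted, MEK-ERK and MHC genes. The members and lists were chosen with earlier results of these data known. Fits were tested on simulated data. Alternatives covered the pseudocount, filters, quantile normalization, eBayes without trend, added XEN lines, the stage block and left-out stages. Some list members counted here are not reported by name.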

Additional observations from a re-analysis of the deposited data

Results flagged for a closer look

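The clone difference itself changed between stages in a few genes, by limma's test of the change. From ESC to cXENp3 it changed in 4 genes: Tcf15, 2410141K09Rik and Snora81 went down in KO2.6 relative to KO3.34 and Gkn2 went up. From cXENp1 to cXENp3 it changed in 5 genes: Tdh, 2410141K09Rik and Snora81 went down and Gkn1 and Gkn2 went up. Of these, Tcf15 and Tdh had no value of 0 in a null library. Snora81 was listed at 30.8, 0 and 0 FPKM in KO2.6 and 0, 0 and 65.9 in KO3.34.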

How the results depend on the processing

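The counts of calls moved with the processing, and none of the single-gene results rerun reversed. Of the list medians rerun, 77 stayed the same and 31 moved. Over the 3 stages 1 gene was called, and the count was 2 with a pseudocount of 0.1, 0 with no filter, 0 with no replicate block for the pairing by stage, and 7 to 34 with a stage left out. At ESC it was 324 with no filter, 60 with quantile normalization and 5 to 585 with a WT3 and Rescue3.34 pair left out. At cXENp1 it was 8 with a pseudocount of 0.1, 371 with no filter, 20 at a mean of at least 5 FPKM and 0 to 61 with a pair left out. At cXENp3 the same settings gave 9, 679, 5 and 2 to 50, and quantile normalization 56. For the change from ESC to cXENp3 the count was 631 with no filter, 12 at a mean of at least 5 FPKM, 7 without trend, 8 with the XEN lines added and 1 to 12 with a pair left out. For that from cXENp1 to cXENp3 it was 2 with a pseudocount of 0.1, 607 with no filter, 1 at a mean of at least 5 FPKM, 3 with quantile normalization, 1 with the XEN lines added and 0 to 2 with a pair left out. The cause was not tested. Single-gene results, some of them not called in the main fit, were rerun under these settings. Of these reruns 175 stayed on their side of the threshold, 69 lost a call and 6 gained one. The chromosome 1 median (alternatives chosen after seeing the data) lay between -0.65 and -0.41, and leaving chromosome 1 out gave 177, 38 and 22 calls at the 3 stages.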

Other observations

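Genes of chromosome 14, where Gata4 and Sox7 lie, were higher in both null clones than in the other lines. Over 345 genes the median difference from WT3 was 0.46, 0.55 and 0.40 in KO2.6 and 0.60, 0.41 and 0.46 in KO3.34 at ESC, cXENp1 and cXENp3, and -0.06, 0.02 and -0.07 in Rescue3.34. Between the clones it was -0.15, 0.08 and -0.06. Rescue3.34, which the labels derive from the 3.34 clone, thus stood with WT3 and not with KO3.34.

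Antigen presentation genes had larger values in KO2.6 at cXENp3, without passing the test. H2-K1, a class I heavy chain, was at 129 FPKM against 21.4, H2-D1 at 187 against 48.2 and B2m, the light chain, at 421 against 194, with 4 of 9 MHC and interferon-response genes at least 1 log2 unit higher, 1 lower (Ifitm1) and none called; at ESC 2 were at least 1 lower and at cXENp1 all 9 lay within 1. The 2-cell-like genes appeared in both clones at cXENp1: Zscan4c, of a family of near-identical copies whose values are uncertain, stood at 50.0 FPKM in KO2.6 and 79.5 in KO3.34, beside 47.6 in WT3 and 22.8 in Rescue3.34, and 8 of 9 lay within 1.

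Over all genes 12.8%, 6.13% and 8.77% stood at least 1 log2 unit apart at the 3 stages. Of 12 formative and primed epiblast genes 9 lay within 1 log2 unit at each stage, with Lefty1, a Nodal inhibitor, at 10.1 against 75.1 FPKM at cXENp1. Mesendoderm genes (5 of 9 kept) had medians of 0.05, 0.16 and 0.16 and neural progenitor genes (7 kept) of -0.17, -0.57 and 0.34, where Sox1 stood at 3.63 against 24.3 FPKM at cXENp1. Xist was at or below 0.55 FPKM in every null library and at 50.5 and 57.2 in the XEN lines, and of 5 X inactivation genes 2 were kept and lay within 1. Trophoblast genes had medians of -0.05 at cXENp1 and 0.57 at cXENp3, and MEK-ERK feedback genes of 0.07 and 0.20.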
